A study of Mus musculus with 12 samples.

Results

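A set of 10 genes of the retinal pigment epithelium and of melanin formation were examined: *Rpe65*, *Lrat*, *Best1*, *Ttr*, *Pmel*, *Tyrp1*, *Tyr*, *Dct*, *Mlana* and *Mertk*. They were taken by gene symbol, and all 10 had 1 row each in both deposited tables, out of 55866 symbols. Their levels were followed over 12 libraries from 2-month-old mice in 4 groups of 3. The Abca4Ko mice (RiboTag, Abca4-/-, i75-Rod-Cre) and their littermate controls (RiboTag, i75-Rod-Cre, Abca4+/+) all carried a ribosomal protein that is tagged where Cre is active, and the rhodopsin promoter of the i75 line restricts Cre to rods. The retina libraries held lysate RNA, and the rod TRAP libraries held the messages pulled down with the tagged ribosomes (translating ribosome affinity purification). No label names a sample of pigment epithelium or choroid. Sex is not labelled, and nothing says that the 3 libraries of a group came from separate animals, so p-values measure only the spread between these libraries.

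The pigment epithelium is a single sheet of pigmented cells that lies against the tips of the photoreceptors. It turns spent retinoid back into the visual chromophore with LRAT, which esterifies retinol, and RPE65, which isomerizes the ester. It also moves ions, secretes proteins such as transthyretin, engulfs shed outer segments through MERTK, and holds melanin in melanosomes. Melanin is made by the same enzymes in pigment epithelium and in the melanocytes of the choroid and iris, so *Pmel*, *Tyrp1*, *Tyr*, *Dct* and *Mlana* mark pigmented cells of either kind, whereas *Rpe65*, *Lrat* and *Best1* are typical of the epithelium. *Ttr* is also a major product of liver and choroid plexus, and *Mertk* is also found on other phagocytic cells.

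The label of the gene set did not hold as 1 unit over the retina libraries. The 5 melanosome genes moved together, and *Rpe65*, *Lrat* and *Ttr* moved together in another order. *Best1*, also typical of the epithelium, had only 8 to 33 scaled counts. It leaned towards the melanosome genes and away from *Rpe65*, less clearly without Abca4Ko retina replicate 1. *Mertk* followed neither group. These groups were formed from the values they describe. In the library Abca4Ko retina replicate 1 the melanosome genes were at 2.23% to 4.52% of their median in the other 5 retina libraries, while *Rpe65* and *Lrat* had their highest scaled counts there. The 10 genes are therefore described below by role. Values are TPM (transcripts per 1e+06 transcripts, which allow genes to be compared per length) or scaled counts. The latter were taken, from their near-equal totals, to be read counts that the authors had brought to a common total within each fraction. In bulk samples, fewer cells of a type and less RNA per cell cannot be told apart.

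The whole series was checked in 3 respects. The retina libraries had scaled totals of 17860761 to 17862326, and in the 5 of them where the scaling factor could be read from gaps in the low values the read totals, in units of 1e+06 reads, were 14.8 to 23.2, with 16.5 in Abca4Ko retina replicate 1. *Abca4*, the deleted gene, stood at 0.4004%, 0.958% and 21.3% of the control mean in Abca4Ko retina replicates 1, 2 and 3 and at 0.349%, 0.653% and 23.5% in rod TRAP, so the library labelled Abca4Ko replicate 3 went against its label in both fractions. It was kept, and values without it are given beside the genotype results in both fractions.

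The upstream sequences of the melanosome enzymes are shown because these genes moved together. RefSeq promoter windows of GRCm38.p6 were found for 7 of the 10 genes, and *Pmel*, *Mlana* and *Ttr* had none. The hexamer CATGTG, the core of the M-box to which MITF binds, or its reverse complement CACATG, was searched on both strands in the 250 bases before the start. It was present for *Tyr*, *Tyrp1*, *Dct* and *Rpe65* and absent in these windows for *Lrat*, *Best1* and *Mertk*. The same hexamer was present in 12.3% of 32851 promoter windows of this length. In *Tyr* and *Tyrp1* it began 21 and 46 bases before the start, in *Dct* 150 and 232 bases before it, and in *Rpe65* 239 bases before it. GGATTA or its reverse complement TAATCC, the core bound by OTX2 and CRX, was present in *Rpe65*, *Best1* and *Dct* and in 6.25% of all windows, and CACGTG was in none of the 7 and in 6.02% of all windows. A match of letters is a description and not a site. Capitals mark these hexamers in the following sequences, written 5′ to 3′ on the strand of the gene, of which *Tyrp1* is shown only around its match because annotated transcripts start further upstream.
Tyr, chr7:87493513-87493762, minus strand: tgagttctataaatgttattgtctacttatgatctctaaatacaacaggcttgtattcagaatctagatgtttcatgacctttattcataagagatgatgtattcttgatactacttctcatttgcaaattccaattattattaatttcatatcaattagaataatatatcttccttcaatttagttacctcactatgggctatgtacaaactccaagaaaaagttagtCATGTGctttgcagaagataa
Tyrp1, chr4:80834155-80834184, plus strand: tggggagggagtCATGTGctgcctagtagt
Dct, chr14:118052247-118052496, minus strand: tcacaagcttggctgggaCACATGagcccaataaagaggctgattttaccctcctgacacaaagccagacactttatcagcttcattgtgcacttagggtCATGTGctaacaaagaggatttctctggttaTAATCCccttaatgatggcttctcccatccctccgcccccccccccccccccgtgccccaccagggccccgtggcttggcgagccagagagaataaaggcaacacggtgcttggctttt
Rpe65, chr3:159598931-159599174, plus strand: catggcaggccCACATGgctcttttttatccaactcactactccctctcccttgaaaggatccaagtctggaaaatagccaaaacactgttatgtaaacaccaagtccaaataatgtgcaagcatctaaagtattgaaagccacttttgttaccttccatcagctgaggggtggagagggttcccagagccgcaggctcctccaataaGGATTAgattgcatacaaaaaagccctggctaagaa

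Among control retina libraries, *Dct* had the highest mean level of the 10 genes, at 154.6 ± 89.9 TPM (SD, n = 3). It was followed by *Pmel* at 110.9 ± 83.2, *Mlana* at 68.3 ± 38.1, *Ttr* at 57.4 ± 23.4 and *Tyrp1* at 49.3 ± 25.5 TPM. Each of these neighbours overlapped in their single libraries. *Tyr*, at 3.77 ± 1.86 TPM, lay below every library of *Tyrp1* and overlapped *Rpe65*, at 3.70 ± 2.09 TPM. *Mertk* (1.47 ± 0.551 TPM) lay below every library of *Rpe65*, and *Best1* (0.800 ± 0.346) and *Lrat* (0.3 ± 0.265) overlapped or met their neighbour in the order. Of the 5 most abundant members 4 were melanosome genes, and *Lrat*, *Best1*, *Mertk*, *Rpe65* and *Tyr* were below 4 TPM on average.

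**Figure D1:**
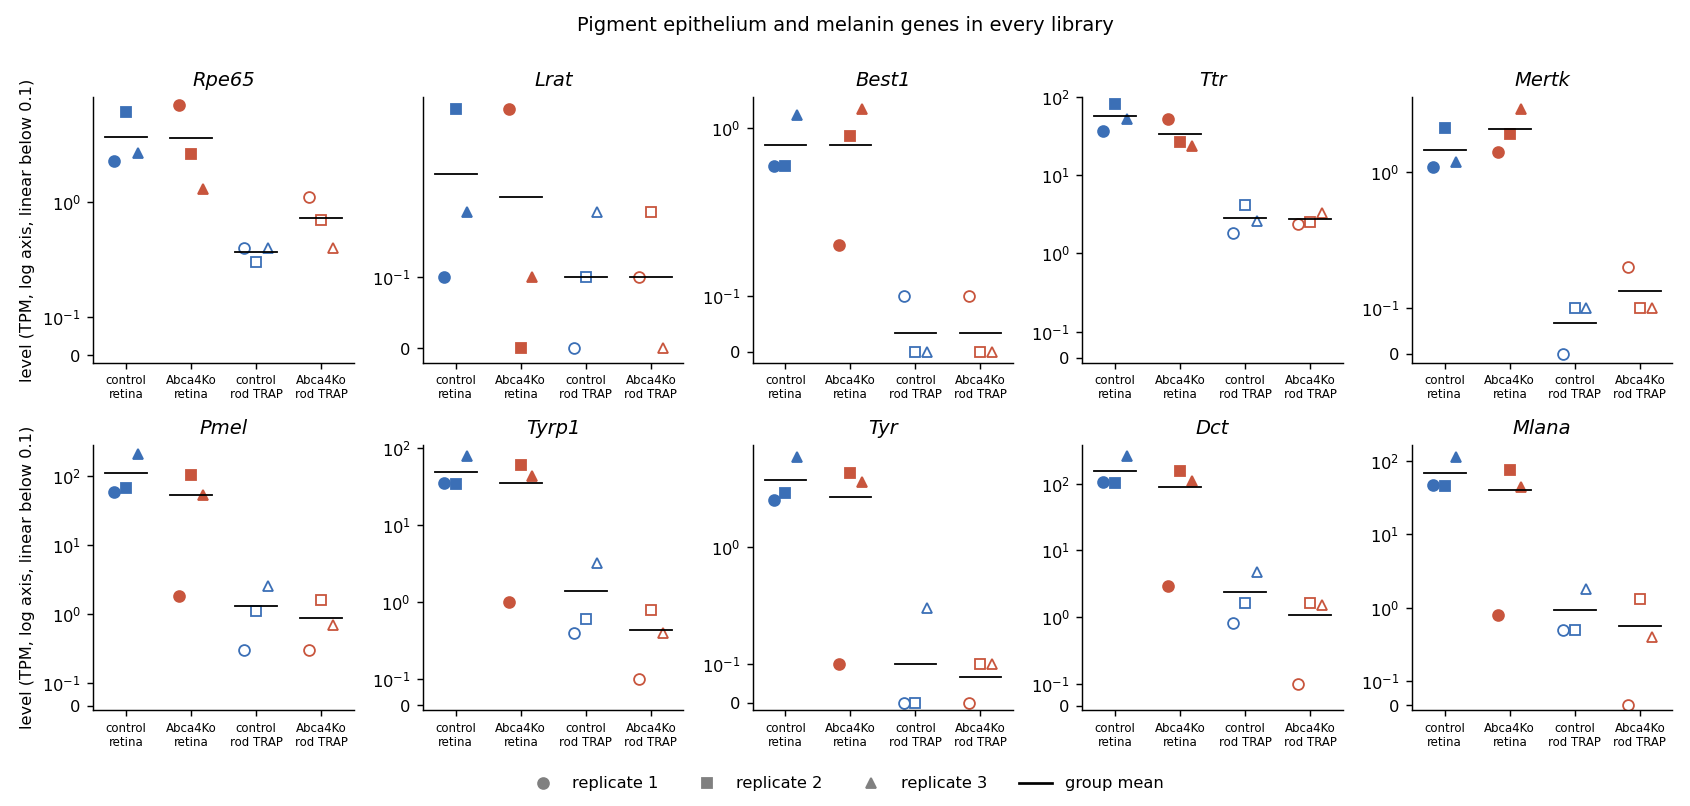
Level of each gene in TPM (vertical axis, logarithmic above 0.1 and linear below) in the 4 groups, with a symbol for each library and a line at the group mean. The 5 genes of the lower row have 1 low retina library, Abca4Ko replicate 1, where *Dct* was at 2.9 TPM against 100.4 to 258.4 TPM in the other 5, and the mean of every gene is lower in rod TRAP than in retina of the same genotype.

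The melanosome genes were next followed library by library. *Dct*, dopachrome tautomerase of the eumelanin pathway, had scaled counts of 2412, 2105 and 6105 in control retina replicates 1, 2 and 3 and of 68, 3355 and 2227 in Abca4Ko. *Pmel*, which builds the fibrils on which melanin is laid down, had 1406, 1419 and 4914 in control and 38, 2336 and 1146 in Abca4Ko. In both genes control replicate 3 was highest and Abca4Ko replicate 1 lowest, and the other 4 libraries lay between without a division by genotype. *Tyrp1*, a melanosomal enzyme related to tyrosinase, had scaled counts of 961, 836 and 2112 in control and of 33, 1624 and 1040 in Abca4Ko. *Tyr*, tyrosinase, the rate-limiting enzyme of melanin synthesis, had 140, 128 and 321 in control and 8, 238 and 177 in Abca4Ko. *Mlana*, a small melanosome membrane protein, had 403, 339 and 983 in control and 9, 606 and 335 in Abca4Ko. The order of the highest, the next and the lowest library was the same in all 5 genes.

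Abca4Ko retina replicate 1 was 16-fold below the lowest of the other 5 retina libraries for *Tyr*, 25.3-fold for *Tyrp1*, 30.2-fold for *Pmel*, 31.0-fold for *Dct* and 37.2-fold for *Mlana*. Summed, the 5 melanosome genes had 6.6 TPM there and 249.2 to 662.3 TPM in the others. Of 15313 genes with a mean of at least 1 CPM (counts per 1e+06 counts) in retina, 21 were at least 8-fold below the lowest of the other 5 libraries in this library, and 5 of these were the melanosome genes. In each of the other 5 retina libraries the number of genes so far below all others was 0 or 1. The remaining genes of the 21 included *Gpnmb*, a melanosome glycoprotein (76 scaled counts against 1374 to 4887), and *Tspan10* (10 against 140 to 436). They also included *Acta2* and *Myh11*, contractile genes of smooth muscle (21 against 543 to 1616, and 8 against 140 to 382), *Dcn*, a matrix proteoglycan of connective tissue (14 against 183 to 436), and *Vwf*, an endothelial gene (4 against 50 to 95). These names were chosen after their values were seen.

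**Figure D2:**
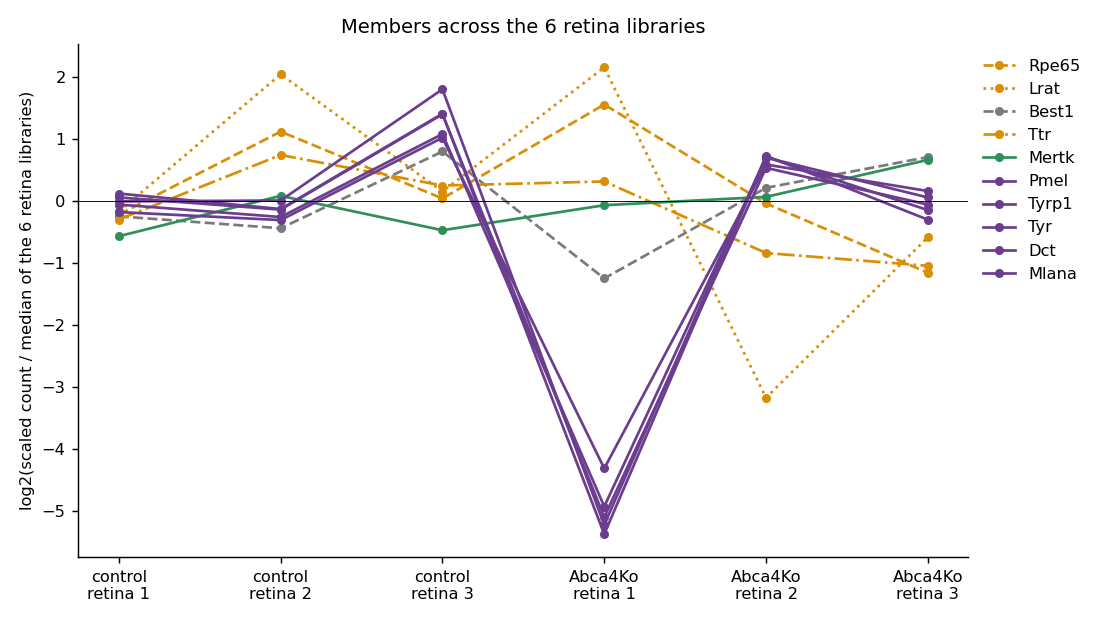
Scaled count of each gene divided by its median over the 6 retina libraries (vertical axis, log2), for the 3 control and the 3 Abca4Ko libraries. The 5 melanosome genes run as 1 bundle that drops in Abca4Ko replicate 1, where *Rpe65* (157 scaled counts) and *Lrat* (40) have their highest points.

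The epithelial genes did not share 1 order. *Rpe65*, the retinoid isomerase, had scaled counts of 46, 116 and 55 in control retina replicates 1, 2 and 3 and of 157, 52 and 24 in Abca4Ko. *Lrat*, lecithin retinol acyltransferase, had 8, 37 and 10 in control and 40, 1 and 6 in Abca4Ko. *Ttr*, transthyretin, the carrier of thyroxine and of retinol-binding protein, had 436, 896 and 637 in control and 667, 300 and 260 in Abca4Ko. Control replicate 2 and Abca4Ko replicate 1 were the highest 2 libraries in all 3 genes, and Abca4Ko replicate 3 was among the lowest 2. *Best1*, a chloride channel of the basolateral membrane, had 16, 14 and 33 in control and 8, 22 and 31 in Abca4Ko, with its lowest value in Abca4Ko replicate 1. *Mertk*, the receptor for outer segment engulfment, had 58, 91 and 62 in control and 82, 90 and 136 in Abca4Ko, and Abca4Ko replicate 1 was the third lowest of its 6 libraries. *Lrat* lies, in GENCODE M21, wholly inside an antisense gene (*Rbm46os*), and 3 more members share bases with a gene on the other strand. These are *Mertk* with *Gm14011* (2435 bases), *Dct* with *4930435M08Rik* (1891 bases) and *Pmel* with *Cdk2* (837 bases) and *Dgka* (105 bases). Counting by strand is not stated, so reads of such pairs cannot be told apart.

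The ratio of *Dct* to *Rpe65* in TPM brought the contrast into 1 number per library. It was 45.7, 16.5 and 95.7 in control retina replicates 1, 2 and 3 and 0.414, 59.0 and 84.8 in Abca4Ko. Of the 6 libraries, Abca4Ko replicate 1 had a ratio below 1. The summed level of *Rpe65*, *Lrat*, *Best1* and *Ttr* was 59.8 TPM in that library and 26.6 to 90 TPM in the other 5, a sum made up mostly of *Ttr*. Taken singly, in scaled counts, *Ttr* was within the range of the other 5 libraries there, *Rpe65* and *Lrat* were above it and *Best1* was below it. Within the melanosome genes the ratios stayed closer together, with *Dct* over *Mlana* in scaled counts at 5.54 to 7.56 over all 6 retina libraries, Abca4Ko replicate 1 included.

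Correlations over the 6 retina libraries are given as descriptions, since the points share their libraries and 1 of them stands apart from the rest. On log2(CPM + 0.5), Pearson's r was 0.988 to 0.999 over the 10 pairs of melanosome genes and 0.817 to 0.848 over the 3 pairs of *Rpe65*, *Lrat* and *Ttr*. Between the 2 groups, r was −0.713 to −0.219 over 15 pairs. Without Abca4Ko replicate 1 the ranges over 5 libraries were 0.885 to 0.990, 0.741 to 0.869 and −0.516 to 0.273. By rank the groups were not apart among these 5 libraries, since Spearman's rho was 0.6 to 1 within the melanosome genes, 0.7 to 0.9 within *Rpe65*, *Lrat* and *Ttr*, and −0.4 to 0.7 between them. *Best1* had r of 0.790 to 0.852 with the melanosome genes and of −0.823 to −0.507 with *Rpe65*, *Lrat* and *Ttr* over 6 libraries, and of 0.491 to 0.788 and −0.650 to −0.419 over 5. Spearman's rho of *Best1* over these 5 was 0.3 to 0.9 with the melanosome genes and −0.4 to −0.3 with *Rpe65*, *Lrat* and *Ttr*. *Mertk* had r of −0.149 to −0.0329 with the melanosome genes and of −0.453 to −0.0671 with *Rpe65*, *Lrat* and *Ttr*.

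The genes most like a member over the 6 retina libraries were looked up among 15312 genes of at least 1 CPM. For *Pmel* these were *Gpnmb* (r = 0.999), *Csad*, *Mlana*, *Anks6* and *Smpdl3a*. For *Rpe65* they were *Rn7s2* (r = 0.971), *Gm13583*, *Leng1*, *1700096K18Rik* and *Gm4925*, none of them from the pigment epithelium lists. For *Mertk* they were *Itgb8* (r = 0.999), *Megf10*, *Lrrc4c*, *Greb1* and *Ildr2*. For *Ttr* they were *Prps1* (r = 0.985), *Gm36839*, *Rgr*, *A430105J06Rik* and *Btg3*, and *Rgr* (r = 0.981) is on the visual cycle list. The smooth muscle gene *Acta2* was the nearest to *Tyrp1* (r = 0.999) and *Tyr* (r = 0.998), and was among the 5 nearest to *Dct* and *Mlana*. *Rpe65* was counted at 24 to 157 scaled counts in retina, so its order over 6 libraries carries more counting error than that of *Pmel*.

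Other genes of the same roles were taken from a list of 35. In Abca4Ko retina replicate 1, 9 of 9 further melanosome genes had their lowest scaled count of the 6 retina libraries, where 41.8% of all 15313 genes did. They stood at 4.85% to 62.3% of their median in the other 5, with a median of 16.7%, against 86.4% over all genes. The opsin-like *Rgr* of the visual cycle was at 169.6% and *Rdh5*, a retinol dehydrogenase, at 96.4% of that median, and 2 of the 7 further visual cycle genes were lowest there. Of 9 further genes for transport and secretion, 6 were lowest there. Among these, *Kcnj13*, a potassium channel of the apical membrane, had 6 scaled counts against 30 to 57, whereas the lactate transporter *Slc16a8* had 80 against 36 to 74, but in TPM it was within the range of the others (2.6 against 1.2 to 3.4). The median was 96.4% for the further visual cycle genes and 54.0% for those of transport and secretion, against 86.4% over all genes. Summed TPM of both lists was the lowest of the 6 retina libraries, at 59.6% and 63.5% of the median of the other 5. Single genes thus lay on both sides of their usual level in this library, but more of those for transport and secretion lay below it.

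Markers of other tissues of the eye also stood low in Abca4Ko retina replicate 1, and their part in the result was not tested. Summed TPM in that library, in percent of the median of the other 5, was 30.7% for 7 genes of choroid and sclera (9.6 against 23.9 to 40.9 TPM), 36.1% for 5 melanocyte genes (3.9 against 9.6 to 13.6) and 36.0% for 4 genes of the ciliary epithelium (31.6 against 74.3 to 109). It was 40.4% for 8 vessel genes, 57.8% for 10 Müller glia genes and 61.8% for 9 microglia genes. It was 111% both for 13 rod genes and for 5 blood genes. Lens genes (8) were further below than any of these, at 1.10%, with 118.1 TPM there against 181.3 to 30696.3 TPM elsewhere. The melanosome genes themselves were at 2.60%. Control replicates 2 and 3 were also low in lens genes, and had melanosome sums of 249.2 and 662.3 TPM beside 249.3 TPM in control replicate 1.

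**Figure D3:**
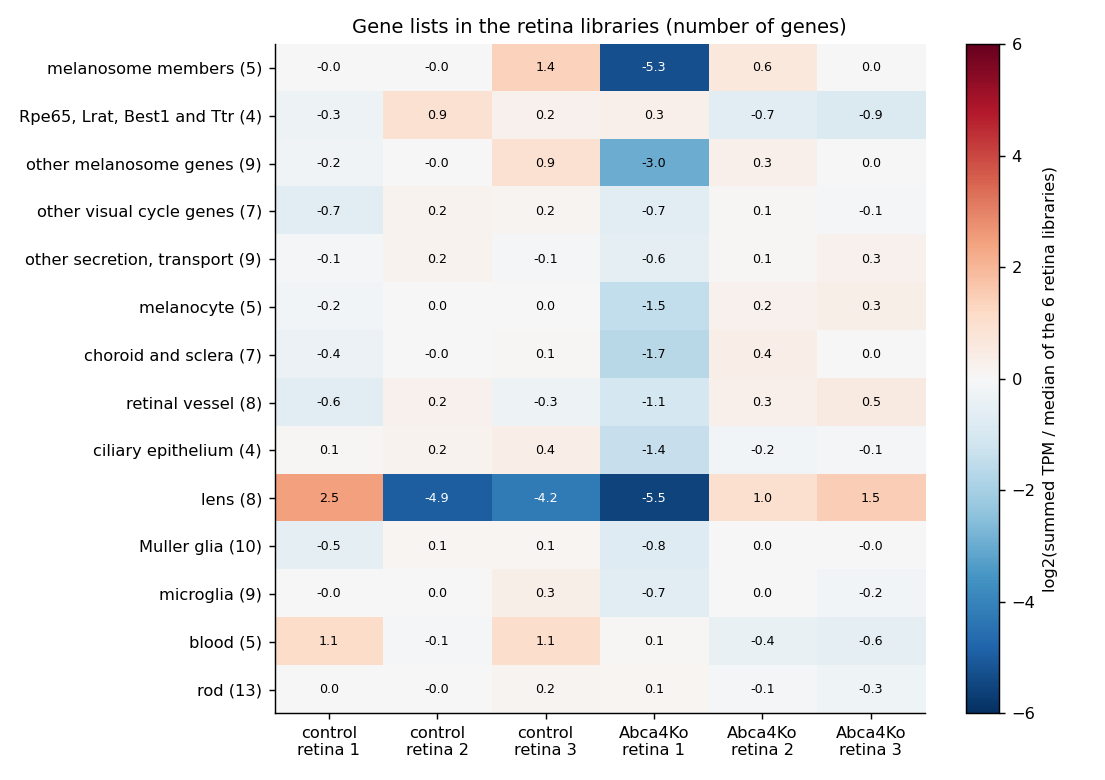
Summed TPM of each gene list (rows, number of genes in brackets) in each retina library (columns), as log2 of the ratio to the median of the 6 retina libraries, with the value in each cell. Abca4Ko replicate 1 is the lowest of the 6 libraries for the melanosome genes (6.6 TPM), the lens list and every other list drawn except the rod list, the blood list and the sum of *Rpe65*, *Lrat*, *Best1* and *Ttr*.

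The comparison of Abca4Ko with control retina asks whether the deletion changed these genes in the tissue. None of the 10 genes, all of which were tested, passed a limma adjusted p of 0.05, where 0.112% of 16964 genes did, and none passed an unadjusted p of 0.05, where 11.9% of all genes did. On the log2(CPM + 0.5) scale, which understates the change of low genes, *Dct* differed by −1.91 (SE 1.66, 95% interval −6.38 to 2.56, limma adjusted p = 0.635). The melanosome genes ranged from −2.09 in *Pmel* to −1.05 in *Tyr*. *Ttr* differed by −0.72 (SE 0.393, limma adjusted p = 0.454), *Rpe65* by −0.11 (SE 0.564) and *Lrat* by −0.30 (SE 0.588). *Mertk* differed by 0.50 (SE 0.244, limma adjusted p = 0.433). It was the only member whose groups did not overlap after rescaling, where 19.7% of all genes did not, and its scaled counts did overlap (82 in Abca4Ko against 91 in control).

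One library set the size of the melanosome differences. Without Abca4Ko retina replicate 1, *Dct* differed by −0.27 (95% interval −1.33 to 0.79), *Pmel* by −0.45, *Mlana* by −0.25, *Tyrp1* by 0.05 and *Tyr* by 0.12. *Rpe65* and *Ttr* moved the other way, to −0.82 (SE 0.380, limma adjusted p = 0.465) and −1.21 (SE 0.265, limma adjusted p = 0.335). *Ttr* then had 300 and 260 scaled counts in the remaining Abca4Ko libraries and 436 to 896 in control. The library left out, with 667, lay within the control range. The share of all genes that do not overlap in this split was not computed. Without the library labelled Abca4Ko replicate 3, *Dct* differed by −2.58, *Rpe65* by 0.47 and *Ttr* by −0.42, with limma adjusted p of 0.726 to 0.751. No member passed in any of the 6 fits of this comparison that left out 1 library.

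**Figure D4:**
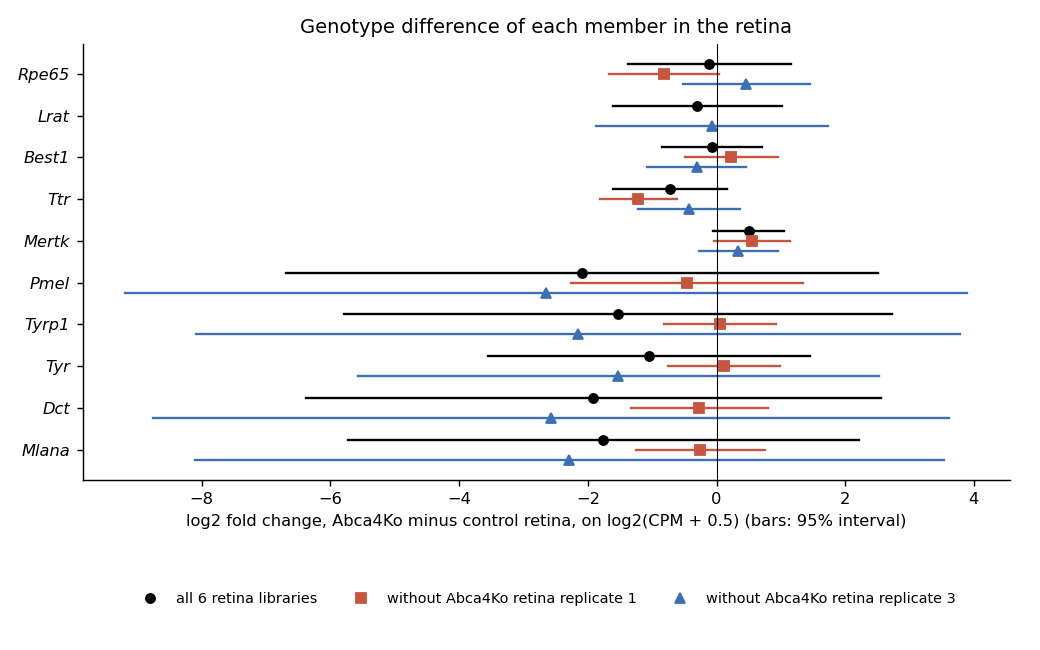
Log2 fold change of each gene between Abca4Ko and control retina (horizontal axis, on log2(CPM + 0.5)) with its 95% interval, for all 6 libraries and without Abca4Ko replicate 1 or 3. The interval of *Dct* narrows from −6.38 to 2.56 with all libraries to −1.33 to 0.79 without replicate 1, and no point is drawn for *Lrat* there because it no longer passed the filter on low values.

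In rod TRAP the genotypes could be compared in 4 members only, *Ttr*, *Pmel*, *Tyrp1* and *Dct*, since the other 6 did not reach 10 scaled counts in 3 libraries. None passed a limma adjusted p of 0.05, where 1.12% of 13104 genes did, or an unadjusted p of 0.05, where 10.4% did. *Dct* had scaled counts of 19, 21 and 87 in control and of 3, 30 and 28 in Abca4Ko, a difference of −0.76 (SE 0.621, limma adjusted p = 0.743). *Ttr* had 16, 37 and 23 in control and 24, 21 and 30 in Abca4Ko, a difference of 0.03 (SE 0.252, limma adjusted p = 0.977). *Pmel* and *Tyrp1* differed by −0.29 and −0.60. Without the library labelled Abca4Ko replicate 3, *Dct* differed by −1.01, *Ttr* by −0.058, *Pmel* by −0.20 and *Tyrp1* by −0.62, with limma adjusted p of 0.652 to 0.953. Of the untested members, *Rpe65* had 6, 3 and 7 in control and 18, 11 and 7 in Abca4Ko, and *Mertk*, *Lrat*, *Tyr*, *Mlana* and *Best1* had at most 14 in any rod TRAP library. The interaction of genotype and fraction, a test of whether the genotype difference differed between retina and rod TRAP, passed for none of the 10 members (limma adjusted p of 0.588 to 0.938), where 0.00579% of 17273 genes passed by limma and 11.3% had an unadjusted p under 0.05. Without both libraries labelled Abca4Ko replicate 3 the interaction also passed for none, at −0.034 in *Mertk* to 2.40 in *Pmel* (limma adjusted p of 0.837 to 0.990).

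Of the 35 further genes, 34 were tested in retina and 21 in rod TRAP. The only one to pass a genotype comparison, in rod TRAP, was *Myo7a*, a myosin that moves melanosomes and phagosomes in pigment epithelium and is also present in photoreceptors. It had scaled counts of 432, 288 and 298 in control rod TRAP and of 73, 106 and 113 in Abca4Ko. The difference was −1.71 (SE 0.182, limma adjusted p = 0.00109) on log2(CPM + 0.5). In retina it had 765, 701 and 776 in control and 108, 327 and 311 in Abca4Ko, a difference of −1.69 (SE 0.318, limma adjusted p = 0.164). That difference passed with the replicate number as a block (limma adjusted p = 0.0424), with no filter on low values (limma adjusted p = 0.0191) and with all 12 libraries in 1 fit (limma adjusted p = 0.0126). It did not pass on log2(TPM + 1) (limma adjusted p = 0.174) or log2(TPM + 0.1) (limma adjusted p = 0.258). In 14 of the 17 alternatives no gene of the list passed in retina. Without the library labelled Abca4Ko replicate 3, *Myo7a* differed by −1.80 in rod TRAP (limma adjusted p = 0.00078) and by −1.87 in retina (limma adjusted p = 0.058). The interaction of *Myo7a* was −0.05 (95% interval −0.89 to 0.80, limma adjusted p = 0.971). Its lowest retina library was again Abca4Ko replicate 1, but Abca4Ko replicates 2 and 3 also lay below all 3 controls. Of all genes tested in retina, 19.7% had groups that did not overlap.

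The comparison of rod TRAP with retina asks how far the pull-down removed these messages. In control mice 9 of the 10 members were lower in rod TRAP at a limma adjusted p under 0.05, where 39.3% of 16286 genes were. Of these, *Rpe65*, *Best1* and *Mertk* had fewer than 10 scaled counts in every control rod TRAP library and reached the filter through retina alone. Such a gene had to differ, so this count is a description. *Pmel* differed by −5.68 (SE 0.758, limma adjusted p = 0.00119) and *Dct* by −5.58 (SE 0.711, limma adjusted p = 0.000988). *Tyrp1* differed by −5.01, *Mlana* by −4.70, *Ttr* by −3.68 and *Tyr* by −3.51, with limma adjusted p of 0.00345 or less. *Mlana* and *Tyr* had 19 and 15 scaled counts summed over control rod TRAP. They did not reach the filter in the rod TRAP comparison, so their p-values are descriptions as well. *Mertk* differed by −2.39, *Rpe65* by −2.004 and *Best1* by −1.42, in a direction that the filter had fixed. *Lrat*, with 55 scaled counts summed over control retina, differed by −0.51 (SE 0.339, limma adjusted p = 0.191).

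As a share of the level in retina by the authors' scaling, control rod TRAP held 0.945% of *Pmel*, 1.15% of *Mlana*, 1.25% of *Dct*, 1.98% of *Tyrp1* and 2.66% of *Tyr*. It held 4.03% of *Ttr*, 3.96% of *Mertk*, 7.70% of *Rpe65* and 30.4% of *Lrat*. The shares of *Rpe65* and of *Lrat* each rest on 16 scaled counts summed over 3 rod TRAP libraries, and that of *Best1*, 1.66%, on 1. By pair of same-numbered libraries the share of *Dct* was 0.823%, 1.04% and 1.49%, that of *Ttr* 3.83%, 4.31% and 3.77%, and that of *Rpe65* 13.6%, 2.70% and 13.3%. The share of *Ttr* lay above that of *Dct* in each of the 3 pairs. Summed over the lists, 10 Müller glia genes were kept at 2.30% and 13 rod genes at 161%.

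**Figure D5:**
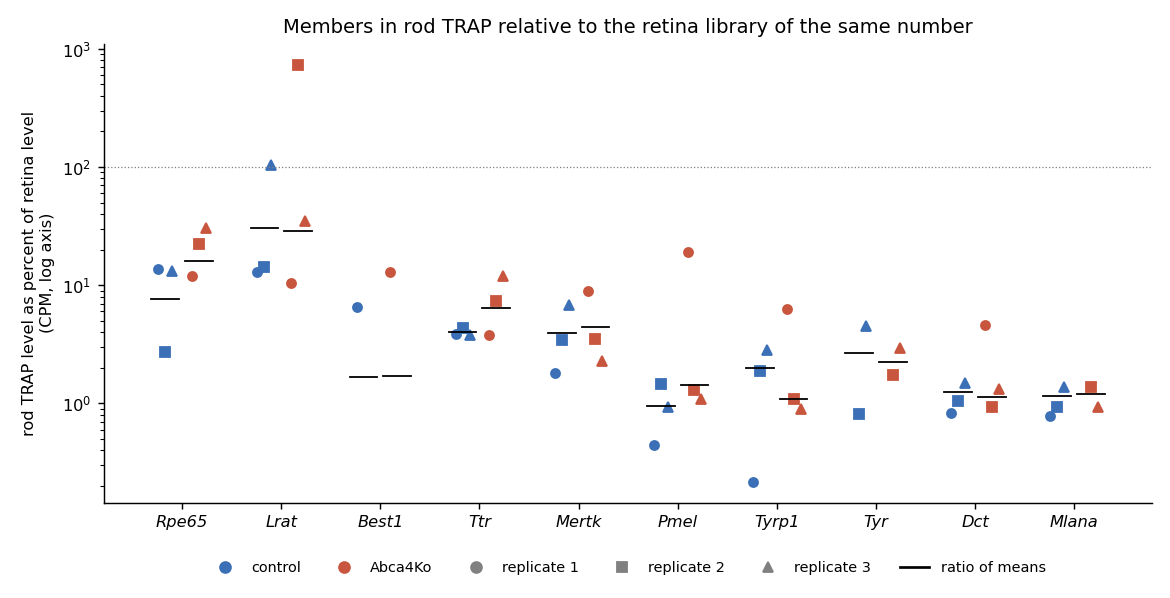
Rod TRAP level as percent of the retina library of the same number (vertical axis, CPM by the authors' scaling, logarithmic) for each gene and genotype, with a symbol for each pair and a line at the ratio of the group means. Pairs with 0 in rod TRAP are not drawn. Control *Dct* lies at 0.823% to 1.49% and control *Ttr* at 3.77% to 4.31%, and *Lrat*, with few counts, scatters up to 731%.

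In Abca4Ko mice 6 members were tested and 3 were lower in rod TRAP, where 34.3% of 16036 genes were. These were *Mertk* (−2.71, SE 0.252), *Ttr* (−3.02, SE 0.372) and *Rpe65* (−1.38, SE 0.534), with limma adjusted p of 0.0435 or less. The groups of *Rpe65*, which did not reach the filter in the rod TRAP comparison, overlapped after rescaling. *Mertk*, with at most 7 scaled counts in rod TRAP, reached the filter through retina alone, so its direction was fixed by the filter. *Dct* differed by −4.57 (SE 1.66, limma adjusted p = 0.0681), *Tyrp1* by −4.20 (limma adjusted p = 0.0588) and *Pmel* by −3.99 (limma adjusted p = 0.0855). With the pairs of same-numbered libraries as a block, *Dct* passed (limma adjusted p = 0.0462). Without Abca4Ko retina replicate 1 all 3 passed, with *Dct* at −6.39 (limma adjusted p = 3.18e-05), and *Rpe65* did not (−0.83, limma adjusted p = 0.0861). *Rpe65* also failed without Abca4Ko retina replicate 2 (limma adjusted p = 0.0842). The same held without Abca4Ko rod TRAP replicate 2 (limma adjusted p = 0.131) or 3 (limma adjusted p = 0.153). The share of *Dct* in rod TRAP was 4.61%, 0.934% and 1.31% in Abca4Ko pairs 1, 2 and 3. The high share of pair 1 rests on 3 scaled counts in rod TRAP and 68 in retina.

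The further genes of the list were tested in the same way. In control, 26 of 33 tested were lower and 3 higher in rod TRAP, and in Abca4Ko 23 of 31 were lower and 3 higher. Of all genes tested, 36.0% were higher in control rod TRAP and 29.4% in Abca4Ko rod TRAP. Of the genes that were lower, 11 in control and 9 in Abca4Ko had fewer than 10 scaled counts in every rod TRAP library, so that the filter fixed their direction. All 7 visual cycle genes were lower in both genotypes, among them *Rbp4* through this filter in both. The lowest fold changes in control were those of *Gpnmb* (−5.82, SE 0.810) and of *Rlbp1* (−5.47, SE 0.214), a retinoid carrier that Müller glia also hold in large amounts. In Abca4Ko they were those of *Rlbp1* (−5.07, SE 0.445) and *Trpm1* (−5.02, SE 0.644), a channel also made by bipolar cells. The highest were those of *Otx2* (1.31, SE 0.115), a transcription factor shared by photoreceptors and pigment epithelium, and of *Slc24a5*, a melanosome ion exchanger (1.06, SE 0.221), and in Abca4Ko these were 0.93 and 1.13. In the TPM table *Slc24a5* went the other way, with a median of 7.3 TPM in retina (0.6 to 13.2) and 0.25 TPM in rod TRAP (0.1 to 0.9). On log2(TPM + 1) it differed by −2.71 in control (limma adjusted p = 5.11e-05) and by −1.93 in Abca4Ko (limma adjusted p = 0.0249), so its direction depended on the table. Under the authors' scaling alone *Slc24a5* did not pass in control (0.47, limma adjusted p = 0.0701) or in Abca4Ko (0.67, limma adjusted p = 0.216). With that scaling the median of all genes tested was −0.62 and not −0.05 in control and −0.49 and not −0.02 in Abca4Ko, so fold changes between fractions are relative to the scaling used. The counts in control then went from 5861 higher and 6400 lower to 3415 higher and 9549 lower genes, and in Abca4Ko from 4722 higher and 5506 lower to 2282 higher and 7814 lower.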

How the data were processed

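RNA was measured in 12 libraries, 3 for each genotype in lysate (retina) and in rod TRAP, grouped by the labels. The authors deposited 2 tables with 1 column per library. The first holds a score, here named scaled count, made by the authors by multiplying read counts to a common total per fraction and rounding. The second deposited table holds TPM to 1 decimal. The submitters' processing notes name CASAVA 1.8.2, HISAT2, DESeq2, edgeR and GRCm39, without their order or settings. Because the values were not taken as raw counts, limma 3.58.1 (trend, robust) in R 4.3.3 was fitted to log2(CPM + 0.5). The fit followed rescaling by trimmed means of M values and covered all genes with at least 10 scaled counts in 3 libraries. Tests were two-sided, adjusted by Benjamini-Hochberg over all genes tested, with a threshold of 0.05, and each comparison used its own 6 libraries (the interaction all 12). The fits were tested on simulated data.

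The members and gene lists were chosen with earlier results of these data known. From the list of 35 further genes, those past the threshold in a genotype comparison and the 2 highest and 2 lowest fold changes between fractions are named. Levels, lists and figures were computed in Python 3.11.15 (pandas 2.3.3, numpy 2.4.6, matplotlib 3.10.9). Same-numbered retina and rod TRAP libraries deviated together from their group means in all 6 pairs (r of 0.16 to 0.434 over 17273 genes), which was read from the data and not from a label, and the number was tried as a block. Promoter windows, gene overlaps and sequences came from RefSeq (GRCm38.p6) and GENCODE M21 (GRCm38), and no position was transferred between builds. Alternatives changed the scaling, the filter, the pseudocount, the table, the variance model, the libraries in the fit and the block.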

Additional observations from a re-analysis of the deposited data

How the results depend on the processing

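No member passed the threshold in either genotype comparison or in the interaction under any alternative run, while the number of all genes called moved. In retina 19 genes were called, 12 by the authors' scaling, 33 with no filter, 7 with at least 50 scaled counts, 38 and 37 on log2(TPM + 1) and log2(TPM + 0.1), 63 with all 12 libraries in 1 fit, and 1 to 16 when 1 library was left out. In rod TRAP 147 were called, 47 and 44 on the TPM scales, 42 without trend and robust, 96 with all 12 libraries in 1 fit, and 28 to 598 when 1 library was left out. The interaction had 1, against 3 on both TPM scales and 2 without the Abca4Ko pair of number 2. The cause was not tested.

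With the replicate number as a block, 33 genes were called in retina. The block called *Dct* between fractions in Abca4Ko and changed no other call of a member. Of the further genes named, it called *Myo7a* in retina (limma adjusted p = 0.0424) and between fractions in Abca4Ko (limma adjusted p = 0.00998).

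Between fractions in control, 9 members were called, 3 of them through retina alone, and 6 to 9 when 1 library was left out. With a library left out, fewer members passed the filter. In Abca4Ko 3 of 6 were called, *Mertk* among them through retina alone. The number was 6 by the authors' scaling, where 7814 of 16036 genes were lower. It was 5 by median-of-ratios scaling (5770 of 16036 genes lower) and 5 without trend and robust (5468 of 16036 genes lower). With all 12 libraries in 1 fit it was 9, where 6450 of 17273 genes were lower and all 10 members passed the filter. When 1 library was left out it was 1 to 4. Leaving out both Abca4Ko libraries of a number was chosen after seeing the data, and gave 5 members without pair 1 and 1 without pair 2, while all genes called fell from 10228 to 4090 without pair 2 and 5566 without pair 3, and ranged from 6035 to 9786 without 1 library. *Rpe65*, close to the threshold there, was lost in 8 of 19 alternatives. Among these were no filter, log2(CPM + 2), the fit without trend and robust, and the fits without 1 library named above.

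Member fold changes in retina changed sign when 1 library was left out, over ranges of −0.31 to 0.23 for *Best1*, −2.50 to 0.054 for *Tyrp1*, −1.76 to 0.12 for *Tyr*, −0.82 to 0.47 for *Rpe65* and −0.55 to 0.20 for *Lrat*. In rod TRAP they did so for −0.18 to 0.27 for *Ttr* and −0.76 to 0.17 for *Pmel*, and *Ttr* was at −0.012 on log2(TPM + 1). For the interaction the ranges were −0.22 to 0.29 for *Best1*, −0.27 to 0.81 for *Lrat*, −0.70 to 1.86 for *Tyrp1*, −0.25 to 1.59 for *Tyr*, −0.56 to 2.09 for *Dct* and −0.080 to 2.38 for *Mlana*. *Mertk* was at 0.065 on log2(TPM + 0.1), and without pair 1 *Best1* was at −0.29, *Tyrp1* at −0.33 and *Tyr* at −0.0067, and without pair 2 *Lrat* at −0.43. All these values had limma adjusted p above the threshold. Levels near 10 scaled counts, as of *Lrat* and *Best1*, limit what can be told at this depth.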
